A study of Mus musculus with 8 samples.

Results

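The genes described here build and load the actin core of the stereocilia, the rigid protrusions on hair cells that carry the transduction channels of the inner ear. They were taken as a list of 10 named genes: 5 unconventional myosins (Myo7a, Myo15, Myo3a, Myo3b and Myo6), 3 proteins that cross-link actin filaments (Espn, Fscn2 and Pls1), the membrane linker Rdx and the link protein Strc. All 10 had a probe set among the 18193 genes of the array, and 9 passed the filter on low signal that left 13216 genes for testing. Myo3a did not pass.

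RNA was taken at postnatal day 16 from tissue labelled as organ of Corti, the epithelium that holds the hair cells of the mouse cochlea. The tissue was parted into a basal section, which responds to high frequencies, and an apical section, which responds to low ones, and each section was hybridised to 1 array. Conditional knockout mice (cKO) were Atoh1-Cre;Dicer1(flox/flox), and control mice were their littermates with Atoh1-Cre;Dicer1(flox/wt), so that every mouse carried the Cre transgene and at least 1 floxed Dicer1 allele. The 4 groups, cKO base, control base, cKO apex and control apex, held 2 arrays each, and an array held the sections of both cochleae of 1 mouse. Dicer1 encodes the enzyme that cuts microRNA precursors, and Atoh1-Cre is driven by a hair cell enhancer, so most cells of the section keep their Dicer1 alleles. The basal and apical arrays of the same genotype and replicate number were taken to come from the same mouse, which gives 4 presumed mice.

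A stereocilium is a bundle of parallel actin filaments held together by plastin, fascin and espin cross-links, and the bundles stand in rows of rising height. Unconventional myosins walk along this core: they deliver capping and bundling proteins to the tips, pull on the tip links and fix the tapered foot of each stereocilium in the cell. Loss of several of these proteins causes deafness in mice, with stereocilia that are short, fused or poorly ordered. In bulk tissue, fewer hair cells and less RNA per hair cell cannot be told apart.

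The promoters of the genes the results turn on are printed here so that the members can be told apart by sequence as well as by name. They are the 250 bases before the start of each gene, from RefSeq on GRCm38.p6, read along the gene's strand, with capitals marking any match to the 5 short motifs searched on both strands (CAGCTG and CAGATG, E-box forms bound by factors of the Atoh1 class; TAATTA, a POU or homeodomain core; AAATCA, the core of Gfi1 sites; TATAAA, the TATA box). They are the promoters of the 3 genes that were lower in the base, followed by those of the myosin pair that varied together.
Strc, chr2:121380941-121381190, minus strand: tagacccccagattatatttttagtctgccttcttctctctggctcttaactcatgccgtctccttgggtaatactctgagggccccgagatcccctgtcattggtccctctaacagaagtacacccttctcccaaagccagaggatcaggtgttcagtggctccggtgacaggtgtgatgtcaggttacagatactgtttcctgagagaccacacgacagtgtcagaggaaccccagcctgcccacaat
Fscn2, chr11:120361284-120361533, plus strand: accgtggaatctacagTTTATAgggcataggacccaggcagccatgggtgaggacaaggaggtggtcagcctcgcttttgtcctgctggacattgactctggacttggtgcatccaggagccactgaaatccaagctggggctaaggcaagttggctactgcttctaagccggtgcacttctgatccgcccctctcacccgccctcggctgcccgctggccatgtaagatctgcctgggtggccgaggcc
Pls1, chr9:95845280-95845529, minus strand: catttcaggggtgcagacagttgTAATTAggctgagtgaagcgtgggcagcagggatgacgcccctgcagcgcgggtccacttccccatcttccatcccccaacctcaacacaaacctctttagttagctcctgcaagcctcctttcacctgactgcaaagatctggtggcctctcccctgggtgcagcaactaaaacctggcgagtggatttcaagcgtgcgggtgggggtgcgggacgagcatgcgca
Myo7a, chr7:98119494-98119743, minus strand: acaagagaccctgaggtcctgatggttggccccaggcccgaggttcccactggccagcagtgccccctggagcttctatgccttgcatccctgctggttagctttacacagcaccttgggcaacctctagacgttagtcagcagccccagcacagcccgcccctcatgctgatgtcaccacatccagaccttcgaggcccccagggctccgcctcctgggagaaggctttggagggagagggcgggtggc
Myo15, chr11:60469089-60469338, plus strand: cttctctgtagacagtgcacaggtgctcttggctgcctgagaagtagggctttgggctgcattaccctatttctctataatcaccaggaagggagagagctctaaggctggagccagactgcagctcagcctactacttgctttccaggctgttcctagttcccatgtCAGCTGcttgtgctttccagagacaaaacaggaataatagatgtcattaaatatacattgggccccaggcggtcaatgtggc

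The 5 promoters shared no motif match. Myo15 had CAGCTG beginning 82 bases before its start, Pls1 had TAATTA at 227 bases, Fscn2 had TATAAA on the opposite strand at 234 bases, and Strc and the first Myo7a window had none of the 5. Over all 14 windows of the 10 members, CAGCTG lay in 4 (Espn, Myo15 and Rdx), TAATTA in 2 (Espn and Pls1), TATAAA in 1, and CAGATG and AAATCA in 0. Of 32851 windows of the same length over all genes, 13.0% held CAGCTG, 14.4% CAGATG, 4.84% TAATTA, 12.4% AAATCA and 12.4% TATAAA. These matches are a description of the letters in the window and not of binding.

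Array medians lay between 67.3 and 100 in signal units, and with 2 arrays a group the precision is limited throughout. The 2 arrays of control base resembled each other less (r = 0.928 across genes) than the pairs of the other groups did (0.961 to 0.978). Only the cKO base arrays were most like their own replicate. The highest r with an array of another group was 0.969 to 0.977 for the apical arrays, and 0.968 and 0.972 for control base. The 2 arrays of control base differed in marker content, each in its own way. Replicate 1 had a summed signal of 20956 for 12 markers of the stria vascularis, the secretory epithelium beside the organ of Corti, and replicate 2 had 55924, with 51627 to 57327 in the cKO base arrays. Replicate 2 had the lowest sum of the 8 arrays for 8 neuron markers, 19528 against 59174 in replicate 1 and 30773 to 46506 in cKO base. The same held for the sum of 17 hair cell markers outside the members, 13693 against 30896 in replicate 1. That sum rests largely on the bright Calb2 and Pvalb, at 13.93 and 13.54 log2 in replicate 1 and 12.65 and 12.13 in replicate 2. The median of the 17 was no lower in replicate 2, at 7.14 log2 against 7.01 in replicate 1. Control mouse 1 was also the only mouse with Xist signal of a female, at 12.39 (base) and 12.54 (apex) log2 against at most 8.23 in the other 6 arrays. Tectb, which encodes a tectorial membrane protein and is strongest toward the apex, separated the sections, at 5.71 to 8.71 log2 in basal and 12.52 to 13.48 in apical arrays. Dicer1 itself differed by -0.02 ± 0.22 log2 (cKO minus control, SE) in the base and -0.09 ± 0.22 in the apex, and whether its probe set lies in the deleted exon is not given in the sources used here. Of the defining hair cell markers, Slc26a5, Atoh1 and Barhl1 fell under the filter, while Pou4f3, Gfi1 and Otof passed it. Markers of other cochlear tissue had signal on every array. The sums were 100430 to 163316 for 9 fibrocyte and limbus markers and 41532 to 58654 for 4 myelin and Schwann cell markers. For 6 bone markers they were 6191 to 22458.

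Strc, Fscn2 and Pls1 were lower in the base than in the apex over both genotypes, by 7.76-fold, 2.93-fold and 1.91-fold. Differences are given as log2 signal of the base minus that of the apex, with the standard error of limma's moderated fit across all genes and a p-value adjusted by the Benjamini-Hochberg method over the 13216 genes, with a threshold of 0.05. These 3 of 9 tested members passed the threshold and were lower in the base, where 0.598% of all genes tested did so and 1.19% passed in either direction. No member passed in the other direction. The median difference of the 9 members was -0.89, against -0.02 over all genes, and 8 of 9 members lay below 0, as did 52.6% of all genes.

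**Figure D1:**
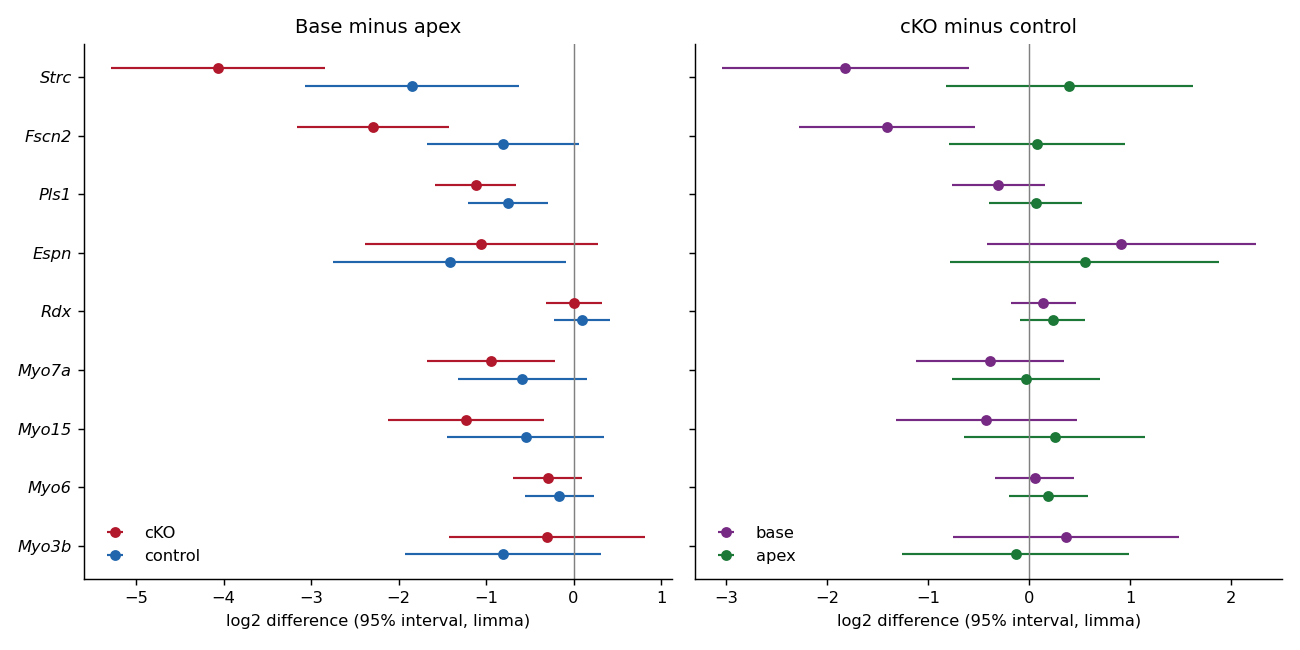
Log2 differences of the 9 tested members with 95% intervals from limma. The left panel shows base minus apex within cKO (red) and control (blue), and the right panel cKO minus control within base (purple) and apex (green); Strc reaches -4.06 in cKO on the left and Strc and Fscn2 lie at -1.82 and -1.40 in the base on the right, while Rdx stays within 0.23 of 0.

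Strc encodes stereocilin, which forms the top connectors between the stereocilia of outer hair cells and ties the tallest of them to the tectorial membrane. Its signal was 18.6 and 53.8 in cKO base, 84.1 and 148 in control base, 643 and 436 in cKO apex, and 371 and 436 in control apex. Every basal array lay below every apical array, and both cKO base arrays lay below both control base arrays. The difference over both genotypes was -2.96 ± 0.37 (adjusted p = 0.0231), and 0.0303% of all genes tested had a lower difference. Because a cKO base array read below the filter (a signal of 38.8), the fold is also given with low values set to the filter, and Strc was then at least 6.46-fold lower in the base. Within cKO mice the difference was -4.06 ± 0.52 (adjusted p = 0.0609), at least 11.6-fold by the same rule, and within control mice it was -1.85 ± 0.52 (adjusted p = 0.526), or 3.6-fold.

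Fscn2 encodes fascin 2, an actin cross-linker shared by photoreceptors and hair cells that maintains the length of the taller stereocilia. Its signal was 33.8 and 21.6 in cKO base, 70.8 and 72.2 in control base, 135 and 130 in cKO apex, and 99.9 and 157 in control apex. The 4 basal arrays again lay below the 4 apical arrays, and the lowest pair was cKO base, where both arrays were under the filter. The difference over both genotypes was -1.55 ± 0.26 (adjusted p = 0.0485), at least 2.44-fold with low values set to the filter. It was -2.29 ± 0.37 within cKO mice (adjusted p = 0.0984, at least 3.41-fold) and -0.81 ± 0.37 within control mice (adjusted p = 0.681).

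Pls1 encodes plastin 1, also called fimbrin, the most abundant cross-linker of the stereocilia core. Its signal was 491 and 538 in cKO base, 734 and 549 in control base, 1159 and 1075 in cKO apex, and 1004 and 1133 in control apex. Basal and apical arrays did not overlap. The difference over both genotypes was -0.93 ± 0.14 (adjusted p = 0.0347), with -1.12 ± 0.20 within cKO mice and -0.75 ± 0.20 within control mice (adjusted p = 0.107 and 0.497).

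These 3 calls rested on small groups. Leaving out any cKO array or any control apex array ended all 3, with Strc at -2.57 to -3.34 and adjusted p of 0.050 to 0.128, while the direction stayed. Where an array or control mouse 1 is left out here and below, the arm left with 1 array has no spread of its own and is assumed to vary like the groups that still hold 2. Without control base replicate 1, Strc was at -2.75, Fscn2 at -1.54 and Pls1 at -1.04 (adjusted p = 0.0057, 0.0206 and 0.0052), and 1518 genes passed in place of 157. Without control base replicate 2, the same 3 members passed (adjusted p = 0.0087, 0.0439 and 0.0227), with 365 genes. With the presumed mouse as a fixed replicate block 255 genes passed and Fscn2 missed the threshold (adjusted p = 0.0505), while with the mouse as a random block 527 genes passed and all 3 members stayed called. Fscn2 also missed the threshold with no filter, with quantile normalization and with every probe set tested (adjusted p = 0.0682, 0.1 and 0.0570), and Pls1 with no intensity trend (0.0547).

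Espn encodes espin, a bundler that sets stereocilia length and is carried by the class III myosins. Its signal was 51.1 and 65.9 in cKO base, 18.7 and 51.0 in control base, 123 and 119 in cKO apex, and 56.0 and 121 in control apex. Control apex replicate 1 overlapped the basal range, and control base replicate 1 was the lowest array and lay under the filter. The difference over both genotypes was -1.24 ± 0.40 and did not pass (adjusted p = 0.192); without control mouse 1, an alternative chosen after seeing the data that leaves 1 array in each control group and takes the spread from the cKO groups alone, it was -1.15 (adjusted p = 0.0499).

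Rdx encodes radixin, which links membrane proteins to actin and is concentrated near the foot of the stereocilia. Its signal was 5702 and 5412 in cKO base, 5028 and 5053 in control base, 6092 and 5029 in cKO apex, and 4545 and 4882 in control apex. All 8 arrays lay within a narrow range, and the regions overlapped: the difference was 0.05 ± 0.10 (adjusted p = 0.82), with a 95% interval of -0.17 to 0.28. The other Rdx probe sets read differently, at -0.11 ± 0.14 for 1416179_a_at and -0.67 ± 0.21 for 1416180_a_at (adjusted p = 0.713 and 0.196, over all probe sets), so the direction for this gene depends on the probe set.

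Among the myosins, none passed the threshold for region. Myo7a, the Usher syndrome myosin that holds tension on the tip links, had signals of 205 and 260 in cKO base, 360 and 254 in control base, 576 and 342 in cKO apex, and 498 and 414 in control apex. The groups overlapped in only 1 pair of arrays, control base replicate 1 and cKO apex replicate 2. The difference was -0.76 ± 0.22 (adjusted p = 0.153). Without control base replicate 1 it was -0.89 (adjusted p = 0.0430), with 1 array left in control base and the spread taken from the other groups.

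Myo15, which carries whirlin and Eps8 to the tips and drives elongation, had signals of 57.3 and 78.7 in cKO base, 103 and 79.0 in control base, 216 and 114 in cKO apex, and 140 and 124 in control apex. Its basal arrays all lay below its apical arrays. The difference was -0.89 ± 0.27 (adjusted p = 0.170), with -1.23 ± 0.38 within cKO mice and -0.55 ± 0.38 within control mice.

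Myo6, which moves toward the base of the stereocilium and anchors it in the cuticular plate, had signals of 3605 and 3913 in cKO base, 3129 and 4185 in control base, 4835 and 4400 in cKO apex, and 4169 and 3932 in control apex. Its regions overlapped, and the difference was -0.23 ± 0.12 (adjusted p = 0.378). A second bright probe set, 1435559_at, gave -0.46 ± 0.12 (adjusted p = 0.152 over all probe sets), and the dim 1421120_at gave 1.07 ± 0.58 (adjusted p = 0.407).

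The class III myosins, which deliver espin to the tips, were dim. Myo3b had signals of 41.6 and 34.9 in cKO base, 20.2 and 43.4 in control base, 46.8 and 47.4 in cKO apex, and 59.1 and 45.2 in control apex. These lie around the filter, and the difference was -0.55 ± 0.34 (adjusted p = 0.448). Myo3a read 0.789 to 3.23 in all 8 arrays, far under the filter, and no difference was tested. At an unadjusted p under 0.05, 6 of 9 members were lower in the base (8.54% of all genes), and in 5 of 9 no basal array reached an apical one (6.39% of all genes).

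**Figure D2:**
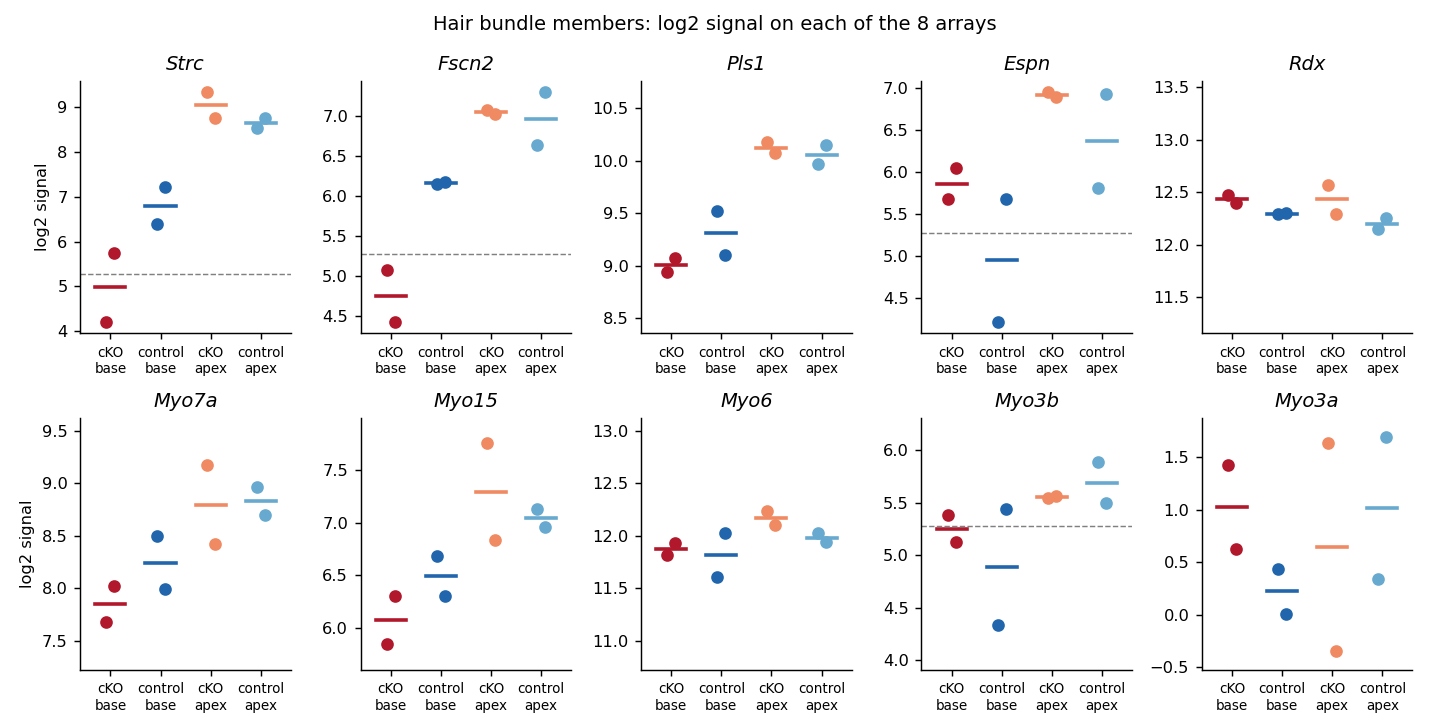
Log2 signal of each member on each of the 8 arrays, in the order cKO base, control base, cKO apex and control apex, with points for arrays, bars for group means and a dashed line at the filter of 5.28 log2 where it falls in the panel. Each panel has its own scale; the basal points of Strc, Fscn2 and Pls1 lie below their apical points, and Myo3a lies at 1.69 or less on every array, under the filter.

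Other genes of the bundle and of hair cells were set beside these. In the tip link and transduction list, 0 of 6 tested genes (of 10 listed) passed for region, with a median of -0.76; Pcdh15, the tip link protocadherin, was at -0.95 ± 0.18 (adjusted p = 0.0551), and Tmc1, a pore-forming subunit of the transduction channel, at -0.97 ± 0.28 (adjusted p = 0.149). In the list of bundle regulators and scaffolds, 22 of 32 genes were tested and 2 passed, both lower in the base. Twf2, an actin-capping twinfilin, was at -1.06 ± 0.18 (adjusted p = 0.0496). Otog was at -1.40 ± 0.23 (adjusted p = 0.0450), and it encodes a protein of the tectorial membrane that was placed in this list. The median of that list was -0.26, with 14 genes below 0 and 8 above. At an unadjusted p under 0.05 by limma, 7 were lower in the base (8.54% of all genes) and 3 were higher (8.66%). The 3 were Eps8l2 at 0.65 ± 0.16 (adjusted p = 0.109), Myo1c at 0.58 ± 0.20 and Capzb at 0.27 ± 0.11. Among 14 tested relatives of the members that work outside the bundle (of 17 listed, such as the plastin Lcp1 and the moesin gene Msn), 0 passed and the median was -0.09.

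Cell type markers also differed between the regions. Of 14 tested hair cell markers outside the members, 4 passed and were lower in the base (Smpx at -1.79, Gfi1 at -2.01, Calb1 at -2.84 and Chrna9 at -3.23), all 14 lay below 0, and the median was -1.05. The summed signal of the 17 with a probe set was 17962 to 25258 in cKO base, 13693 to 30896 in control base, 27207 to 28049 in cKO apex and 26610 to 27456 in control apex. Calb2 and Pvalb weigh most in that sum. The median of the 17 on each array was 6.48 and 6.84 log2 in cKO base and 7.01 and 7.14 in control base. It was 8.69 and 8.28 in cKO apex and 8.04 and 8.55 in control apex. Of 14 tested supporting cell markers, 3 passed, all lower in the base (Jag1, Sox2 and Tectb), with a list median of -0.38. Tectb is also the gene that served above to check the sections. The 10 tested stria markers had a median of 2.14, with 0 past the threshold, and control base replicate 1 held less of their summed signal than any apical array. The part of these cell types in the members' differences was not tested.

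**Figure D3:**
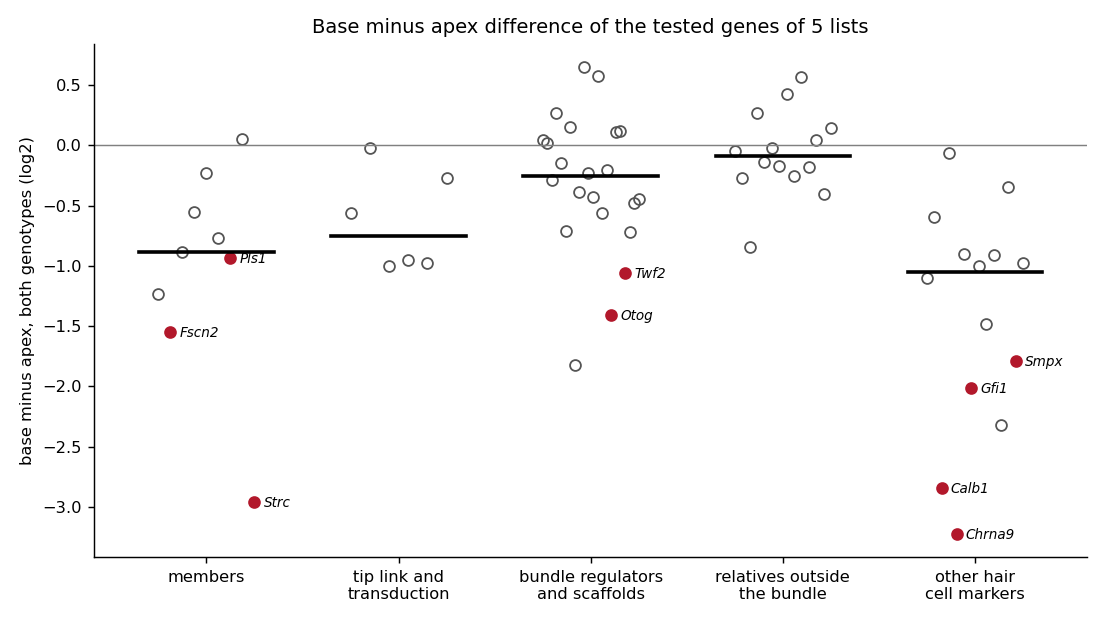
Base minus apex difference (log2, both genotypes) of each tested gene in 5 lists: the members, the tip link and transduction genes, the regulators and scaffolds, the relatives outside the bundle and the other hair cell markers. Filled red points passed an adjusted p of 0.05 and black bars mark medians; the medians are -0.89 for the members, -1.05 for the hair cell markers and -0.09 for the relatives.

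The genotypes were then compared within each region. In the base, Strc and Fscn2 were the members with the largest differences, both lower in cKO, and neither passed the threshold. Strc differed by -1.82 ± 0.52 (cKO minus control, unadjusted p = 0.0093, adjusted p = 1.00), at least 2.44-fold with low values set to the filter. Fscn2 differed by -1.40 ± 0.37 (unadjusted p = 0.00622, adjusted p = 1.00), at least 1.84-fold. Of all genes tested, 0.0908% had a difference below that of Strc and 0.204% below that of Fscn2. In this comparison 0% of the 13216 genes passed limma's threshold, while 413 (3.12%) had an unadjusted p under 0.05, fewer than the 661 that chance alone gives. At that unadjusted level 2 of 9 members were lower, against 1.48% of all genes.

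The direction of both genes held without each array in turn, with Strc at -1.05 to -2.58 and Fscn2 at -1.08 to -1.73. Strc depended on cKO base replicate 1: it was at -1.05 without that array. Without control mouse 1, Strc was at -2.23 and Fscn2 at -1.42 (adjusted p = 0.229 and 0.306), and without control base replicate 2 they were at -1.41 and -1.39. In this region 11 of 14 tested hair cell markers outside the members also lay below 0, with a median of -0.77, and none passed after adjustment. At an unadjusted p under 0.05, 6 were lower and 1 was higher: the smallest p was that of Cabp2, a calcium-binding protein of the hair cell synapse, at -1.49 ± 0.30 (unadjusted p = 0.0013), and the gene that was higher was Calb1, the calcium buffer calbindin, at 1.37 ± 0.57 (unadjusted p = 0.0439). Calb2 and Cacna1d also lay above 0, at 0.30 and 0.20. In the same arrays the median was 1.54 for stria markers and 1.28 for 7 tested markers of blood and marrow, and the part of any of these in the values of Strc and Fscn2 was not tested.

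The other members in the base were closer to 0. Espn differed by 0.91 ± 0.57 (adjusted p = 1.00), by 0.19 without control base replicate 1 and by 1.63 without replicate 2. For Espn the control base mean lay under the filter, and the difference was 0.38 with low values set to the filter. Myo15 was at -0.43 ± 0.38, Myo7a at -0.39 ± 0.31 and Pls1 at -0.31 ± 0.20. With 1 array left out these ran from -0.65 to -0.20 for Myo15 (without cKO base replicate 2 and replicate 1), and from -0.64 to -0.14 for Myo7a and -0.51 to -0.10 for Pls1 (without control base replicate 2 and replicate 1). Myo3b was at 0.36 ± 0.48 with both groups' means under the filter, Rdx at 0.14 ± 0.14 and Myo6 at 0.05 ± 0.17. The cKO and control arrays did not overlap for 4 members that were lower in cKO (Strc, Fscn2, Pls1 and Myo15, with 15.6% of all genes) and for 2 that were higher (Espn and Rdx, with 13.1%). For Rdx the direction depended on the probe set: 1416179_a_at was lower in cKO without overlap, at -0.40 ± 0.20, and 1416180_a_at was at 0.39 ± 0.29. The median of the 9 was -0.31, against 0.00 over all genes.

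In the apex, 0 of 9 members passed the threshold, and 0% of all genes did. An unadjusted p under 0.05 by limma was found for 290 genes (2.19%, where chance alone gives 661), none of them a member on its brightest probe set. Strc differed by 0.40 ± 0.52, Fscn2 by 0.08 ± 0.37 and Pls1 by 0.07 ± 0.20. Espn was at 0.55 ± 0.57, Myo15 at 0.25 ± 0.38, Rdx at 0.23 ± 0.14, Myo6 at 0.19 ± 0.17, Myo7a at -0.03 ± 0.31 and Myo3b at -0.13 ± 0.48. The arrays did not overlap for Strc, Rdx and Myo6, all higher in cKO, where 15% of all genes had that pattern. For Strc this was close to a tie, since replicate 2 read 435.9 in cKO apex and 435.7 in control apex. For Rdx and Myo6 the direction depended on the probe set. Rdx 1416179_a_at was lower in cKO without overlap, at -0.24 ± 0.20, and 1416180_a_at was at 0.13 ± 0.29. The dim Myo6 1421120_at was also lower without overlap, at -2.09 ± 0.81 (unadjusted p = 0.0345 by limma), and 1435559_at was at 0.24 ± 0.17. The median of the 9 was 0.19. The 95% interval of Strc, -0.82 to 1.62, leaves room for sizeable differences in either direction.

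Whether the genotype difference itself changed between regions was tested as the difference of the base and apex effects. It was -2.22 ± 0.74 for Strc (unadjusted p = 0.0186) and -1.48 ± 0.53 for Fscn2 (unadjusted p = 0.0242), both with an adjusted p of 1.00, and the other members ranged from -0.68 (Myo15) to 0.50 (Myo3b). Of all genes 0% passed here, and 150 (1.13%) had an unadjusted p under 0.05 by limma, where chance alone gives 661. The 2 members among the 150 were both lower, as were 0.575% of all genes. Taking the mean of base and apex in each presumed mouse, Strc was at -0.71 ± 0.29, Fscn2 at -0.66 ± 0.29 and Espn at 0.73 ± 0.48 (adjusted p = 0.999). With low values set to the filter, Strc was at -0.45, Fscn2 at -0.40 and Espn at 0.47. Leaving out 1 mouse gave -0.97 to -0.45 for Strc (without control mouse 1 and mouse 2), -0.84 to -0.48 for Fscn2, and 0.09 to 1.37 for Espn (without control mouse 1 and mouse 2). On mouse means 319 genes (2.41%) had an unadjusted p under 0.05 with limma, where chance alone gives 661, and 0% passed after adjustment.

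Within a single genotype, region tests were weaker. In cKO mice 0 of 9 members passed, with 0.0832% of all genes past the threshold, and 5 of 9 were lower at an unadjusted p under 0.05, against 5.66% of all genes. Of the 9, 8 had every basal array below every apical array, against 25.6% of all genes. In control mice 0 of 9 passed, with 0% of all genes, and 3 of 9 were lower at the unadjusted level (3.68% of all genes), while 7 of 9 were lower in the base without overlap (16.9%). Without control base replicate 1, Pls1 was at -0.96 in control mice (adjusted p = 0.0451), which sets 1 basal array against 2 apical arrays with the spread taken from the other groups. These comparisons share arrays with those of genotype, so a low value in cKO base enters both. In cKO mice the threshold was passed in some alternative fits: with the presumed mouse as a random block it was 0.0260 for Strc and 0.0392 for Fscn2 (81 genes passed in place of 11), and with the cKO groups fitted alone the adjusted p was 0.0078 for Strc, 0.0260 for Fscn2 and 0.0170 for Pls1.

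**Figure D4:**
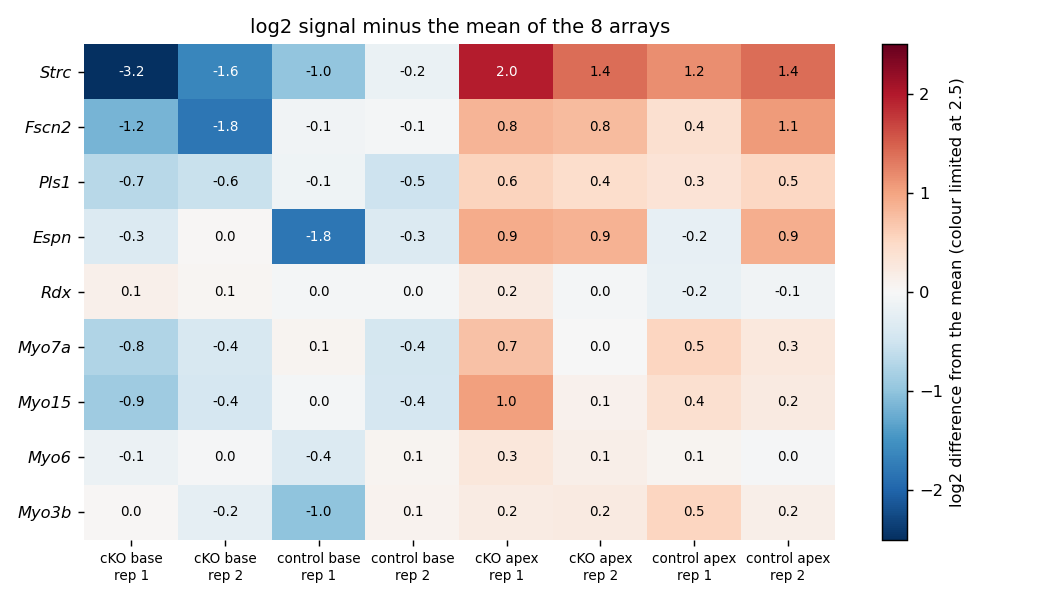
Log2 signal of each tested member on each array minus that member's mean over the 8 arrays, with colour limited at 2.5 either way. Columns run cKO base, control base, cKO apex and control apex; Strc has the widest spread and Rdx the narrowest.

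Across the 8 arrays, Myo7a and Myo15 followed each other most closely. Their Pearson r was 0.976 over 8 arrays, and Myo7a was the gene most like Myo15 among 13215 others, while Myo15 was the third most like Myo7a. Measured from the mean of each group, Myo7a deviated by 0.17, 0.25, 0.38 and 0.13 log2 (cKO base, control base, cKO apex and control apex) and Myo15 by 0.23, 0.19, 0.46 and 0.09, with the same replicate higher for both genes in all 4 groups (r of the deviations 0.977). Each group has 2 arrays, so these are 4 deviations per gene. They are not independent, since the base and apex arrays of a genotype come from the same presumed mice. Over all 36 pairs of members, the median r was 0.485 and 31 pairs lay above 0. On deviations from the group means the median was 0.143 and 21 pairs lay above 0. By that measure values nearly as large arose in the other direction, with -0.973 for Myo3b and Pls1, while Myo3b and Myo6 were at 0.833.

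**Figure D5:**
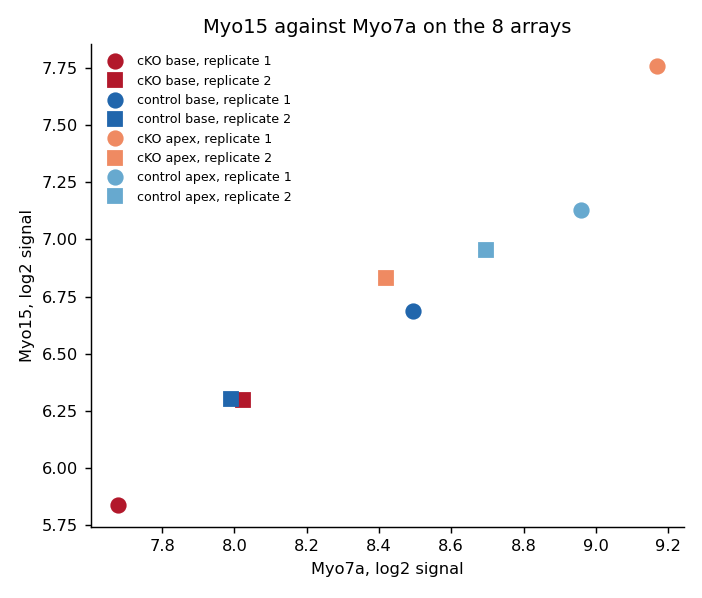
Myo15 against Myo7a, log2 signal on each of the 8 arrays, coloured by group. The arrays lie along a line with Pearson r = 0.976.

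Strc, Fscn2 and Pls1 were also alike, with r of 0.914 for Strc and Pls1 and 0.889 for Strc and Fscn2, but not within groups: on deviations from the group means r was -0.04 for Strc and Pls1, -0.46 for Strc and Fscn2 and 0.05 for Fscn2 and Pls1. Rdx had no close partner in the list, with a highest r of 0.221 to Myo6. By the same measure over the 8 arrays, the genes most like Strc were Plcd4, Ppp1r17 and Mtmr11 (r = 0.976, 0.974 and 0.971), those most like Fscn2 were Zfp90, Pcp4 and Cd164l2 (0.987, 0.976 and 0.971), and those most like Espn were Arhgap11a, Fam241a and Draxin (0.973, 0.973 and 0.970). Nptx1 and Resf1 followed Myo7a in likeness to Myo15 (0.974 and 0.973). These arrays share regional composition, so likeness across them is a description only.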

How the data were processed

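Each array's values, as deposited, are linear intensity per probe set: the authors' MAS5 signal, set to a trimmed mean of 500 (2% off either end), per the file headers and labels. The submitters' processing notes add affy 1.26 with no role. Labelling used 75 to 125 ng of RNA and 2 cycles, per the labels' protocols.

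Of 45101 probe sets, 34945 carried 1 gene symbol, 932 several and 9160 none, and 34741 matched by Entrez identifier. The brightest probe set by mean stood for a gene. Signals were taken to log2 without a pseudocount or rescaling, and those under the 40th percentile of mean (5.28 log2) went untested. The model was limma 3.58.1 (R 4.3.3), on group means (4 residual degrees of freedom, 3.46 from the prior) or mouse means (2 and 3.09). Two-sided p-values were adjusted per comparison by the Benjamini-Hochberg method, at a threshold of 0.05; chance alone gives 661 genes at an unadjusted p under 0.05. The fit was tested on simulated data. Replicates are separate mice.

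Members and gene lists were chosen with earlier results of these data known. Named genes were all members, up to 4 genes of smallest p per list, check genes, and the 3 genes most like a member by Pearson r. The replicate number pairs base and apex by presumed mouse, from the labels' account that 1 mouse gave each replicate; deviations correlated at 0.0683 in cKO and 0.339 in control. Between genotypes it is only a number (0.177 in the base, -0.0315 in the apex). Alternatives covered the filter, pseudocount, scaling, probe set choice, variance model, mouse block, compared groups alone and arrays left out.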

Additional observations from a re-analysis of the deposited data

How the results depend on the processing

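Of 1197 recomputed member differences, 1091 kept their direction and side of the threshold, 68 changed direction, none of them past the threshold, 22 lost and 16 gained the threshold; the cause was not tested. With no intensity trend, limma called 1 gene for cKO minus control in the base and 1 in the apex. For base minus apex in cKO, against 11 genes, 0 passed with no filter, quantile normalization, 75th percentile centring, no intensity trend, the fixed replicate block of presumed mouse or every probe set, 6 with probe sets averaged per gene, 81 with the random replicate block (correlation 0.236) and 450 with the 2 groups alone. Members called there were 1 with a pseudocount of 16 or low values raised (Strc), 2 with the random replicate block and 3 with the groups alone. Over both genotypes, against 157 genes, 102 passed with the mean of probe sets, 70 with no intensity trend, 527 with the random and 255 with the fixed replicate block, and 1050 without control mouse 1, an alternative chosen after seeing the data, which gave 158 in controls against 0. The blocks ended no member call except Fscn2 in the fixed block (adjusted p = 0.0505). Fscn2 also missed it with no filter (0.0682), quantile normalization (0.1) and every probe set (0.0570), and Pls1 with no intensity trend (0.0547). The median member correlation was 0.143 on deviations. A filter at the 60th percentile left Fscn2, Espn, Myo15 and Myo3b untested.

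The alternatives that changed a direction all concerned differences under the threshold. For cKO minus control in the apex, Myo7a was at 0.011 with quantile normalization and 0.0094 with 75th percentile centring, Myo6 at -0.56 with the mean of probe sets and -2.09 on probe set 1421120_at, and Rdx at -0.24 on 1416179_a_at; without control mouse 1, Myo7a was at 0.10, Myo3b at 0.059, Espn at -0.0065, Fscn2 at -0.24 and Pls1 at -0.022. In the base, Myo6 was at -0.16 with the mean of probe sets, -0.62 on 1421120_at and -0.16 without control mouse 1, Myo3b at -0.030 with low values raised and -0.19 without control mouse 1, and Rdx at -0.40 on 1416179_a_at. On mouse means, Myo6 was at -0.36 with the mean of probe sets and -1.36 on 1421120_at, Myo3b at -0.082 with low values raised and Rdx at -0.32 on 1416179_a_at. For base minus apex in cKO, Rdx was at -0.024 with quantile normalization, -0.24 with the mean of probe sets, -0.19 on 1416179_a_at and -0.54 on 1416180_a_at, and Myo6 at 0.33 with the mean and 1.80 on 1421120_at. In controls, Rdx was at -0.25 with the mean, -0.036 on 1416179_a_at and -0.80 on 1416180_a_at, and Myo6 at 0.090 without control mouse 1 and 0.33 on 1421120_at. Over both genotypes, Rdx was at -0.24 with the mean, -0.11 on 1416179_a_at and -0.67 on 1416180_a_at, and Myo6 at 0.13 with the mean and 1.07 on 1421120_at. For the difference of genotype effects, Myo6 was at 0.40 with the mean and 1.47 on 1421120_at, Rdx at 0.0028 with the mean and 0.26 on 1416180_a_at, Espn at -0.17 with low values raised and Myo3b at -0.25 without control mouse 1.

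Leaving out each array in turn, with the spread of the lone array taken from the other groups, gave 0 to 37 genes for cKO minus control in the base, 0 to 9 on mouse means, 0 to 316 for base minus apex in cKO (0 to 3 members), 0 to 551 in controls (0 to 1) and 0 to 1518 over both genotypes (0 to 4). Directions changed within these ranges. For cKO minus control in the apex they were Espn -0.0065 to 1.11, Fscn2 -0.24 to 0.41, Myo15 -0.21 to 0.72, Myo3b -0.33 to 0.059, Myo7a -0.41 to 0.34 and Pls1 -0.022 to 0.15. In the base they were Myo3b -0.19 to 0.92 and Myo6 -0.16 to 0.26, and on mouse means Myo15 -0.23 to 0.054 and Myo3b -0.064 to 0.30. For base minus apex they were Myo6 -0.37 to 0.048 in controls, and Rdx -0.13 to 0.14 in cKO and -0.018 to 0.12 over both genotypes. For the difference of effects they were Espn -0.37 to 1.08, Myo3b -0.054 to 1.05, Myo6 -0.34 to 0.076, Myo7a -0.73 to 0.018 and Rdx -0.23 to 0.046. The number of arrays, and signals near the filter for Myo3b, Espn, Fscn2 and Strc in some basal arrays, limit what can be resolved.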
